A study of Drosophila melanogaster with 15 samples.

Results

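The eIF genes of *Drosophila melanogaster*, which encode the translation initiation factors, were followed in astrocytes of the adult fly brain after traumatic brain injury (TBI). A gene was taken when its FlyBase identifier in the expression table belonged to a gene whose current symbol starts with eIF, and the genes were grouped by complex number. This rule found 44 genes among the 17509 listed, on 6 chromosomes (2L, 2R, 3L, 3R, 4 and X), and all 44 are accounted for. RNA-seq was done on astrocytes 4 hr after TBI, 24 hr after TBI and from uninjured flies, with 5 biological replicates in each group and 15 samples in all. All flies, the uninjured ones included, carried *R86E01-Gal4* and *UAS-Redstinger*, a driver for astrocytes and a red fluorescent nuclear protein, and their genotype was labelled WT. They were 3 days old when the injured groups were given consecutive strikes in the high-impact trauma (HIT) device, which is driven by a spring. About 50 brains were dissociated for each group, and 1600 fluorescent cells were sorted for a library. A sample is therefore a pool of cells from many flies, taken by a single driver line.

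Translation initiation brings the ribosome, the initiator tRNA and the start codon of an mRNA together. eIF1, eIF1A, eIF3 and the eIF2 complex with its tRNA bind the small ribosomal subunit, while eIF4E, eIF4G and the helicase eIF4A load the capped end of the mRNA onto it. eIF5 and eIF5B then complete the joining of the large subunit, and eIF2B returns eIF2 to its active form, the step that stress kinases block by phosphorylating eIF2alpha. Cells alter the rate of initiation through these steps when they are stressed or start to grow.

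Levels are given as TPM, a unit in which reads are divided by transcript length and every sample has the same total. The 8101 genes that reached a TPM of 1 in 5 or more samples were tested on the scale of log2(TPM + 1), and 36 of the 44 eIF genes were among them. A gene was called changed at an adjusted p below 0.05, from limma with Benjamini–Hochberg adjustment over all 8101 genes, and each log2 fold change is followed by its standard error (SE). Sets of 5 values are in the order of replicates 1 to 5. The cells carried the astrocyte markers, with a TPM of *alrm* between 13609 and 30075 in the 15 samples, and of the neuronal *nSyb* between 1.85 and 59.2.

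The samples also differed in ways that bear on every value below. Between 8440 and 8737 genes were above 0 in the uninjured samples, against 9127 to 9939 at 4 hr and 9075 to 10005 at 24 hr. Transcripts of the mitochondrial genome took 17.2%, 11.5%, 26.9%, 43.2% and 36.3% of TPM in the 4 hr samples, 15.7%, 15.2%, 19.6%, 37.2% and 33.4% in the 24 hr samples, and between 32.7% and 51.8% in the uninjured samples. Replicates 4 and 5 of both injured groups thus lay in the range of uninjured astrocytes, apart from the other 6 injured samples. The group means differed at 24 hr (exact two-sided permutation p = 0.0238), and at 4 hr the exact permutation p was 0.0556. The median log2 fold change of all tested genes was 0.31 at 4 hr and 0.51 at 24 hr, so a shift of that size was shared by the typical gene. With samples scaled by median-of-ratios size factors, the same medians were 0.02 and 0.10.

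In sum, the 44 genes had a TPM of 3896 ± 146 at 4 hr, 3803 ± 210 at 24 hr and 3025 ± 299 in uninjured astrocytes (SD, n = 5 each). The lowest injured sum, 3654, was above the highest uninjured one, 3446. The difference was not seen on another scale. With the mitochondrial genome left out and the remaining genes rescaled, the sums were 5453 ± 814, 5095 ± 750 and 5336 ± 389 in the same order and overlapped. Which scale is nearer to the cells was not tested. Whether more cells of a kind or more RNA per cell gave a higher TPM cannot be told apart in such pools.

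At 4 hr, 8 of the 36 tested eIF genes rose and none fell. This was 22.2% of them, against 12.0% of all tested genes that rose (973) and 1.22% that fell (99). The 8 were *eIF4EHP*, which encodes a cap-binding repressor, the helicase gene *eIF4A* and 6 subunit genes of eIF3 (*eIF3b*, *eIF3d1*, *eIF3f1*, *eIF3g1*, *eIF3i* and *eIF3j*). Over all 36 genes the median log2 fold change was 0.53, above that of all tested genes, and 29 of the 36 lay above the median of all genes. The study set its thresholds on counts, and the same values were applied here to the fit of log2(TPM + 1). None of the 36 passed these stricter thresholds, an adjusted p below 0.01 and a doubling or halving, which 5.76% of all tested genes passed as higher. A set of 18 eIF genes had an unadjusted p below 0.05, against 27.1% of all tested genes (2196).

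At 24 hr, 11 of the 36 rose and none fell. This was 30.6%, against 18.3% of all tested genes that rose (1479) and 0.765% that fell (62). *eIF3b*, *eIF3d1*, *eIF3f1*, *eIF3g1*, *eIF3i* and *eIF4A* were called at both times, and *eIF2alpha*, *eIF2gamma*, *eIF3c*, *eIF5B* and *eIF6* at 24 hr. The stricter thresholds were passed by 3 genes (*eIF2alpha*, *eIF3b* and *eIF3f1*), against 2.26% of all tested genes as higher. The median log2 fold change over the 36 was 0.44, below that of all genes, and it was −0.055 with size factors. Of the 36, 31 had a positive log2 fold change, against 79.7% of all tested genes, and 17 lay above and 19 below the median of all genes. At an unadjusted p below 0.05 there were 18 eIF genes, against 39.2% of all tested genes. Both times were compared with the same 5 uninjured samples and are not independent of each other.

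Between 24 hr and 4 hr, *eIF4EHP* was lower at 24 hr and no other eIF gene was called. Among all tested genes, 1.85% were higher and 2.94% lower at 24 hr. The median over the eIF genes was −0.0018, with 5 of the 36 at an unadjusted p below 0.05, against 19.0% of all tested genes. With the mitochondrial genome left out and TPM rescaled, *eIF4EHP* missed the threshold (adjusted p = 0.061), and *eIF3f1*, higher at 24 hr, was the only call (log2 fold change 0.57, SE 0.15, adjusted p = 0.036).

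Complete separation of the groups was counted as well. All 5 samples lay above all 5 uninjured samples for 7 of the 36 genes at 4 hr (19.4%), against 8.68% of all tested genes, and for 11 at 24 hr (30.6%), against 12.5%. *eIF3b* was the only gene with both.

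**Figure D1:**
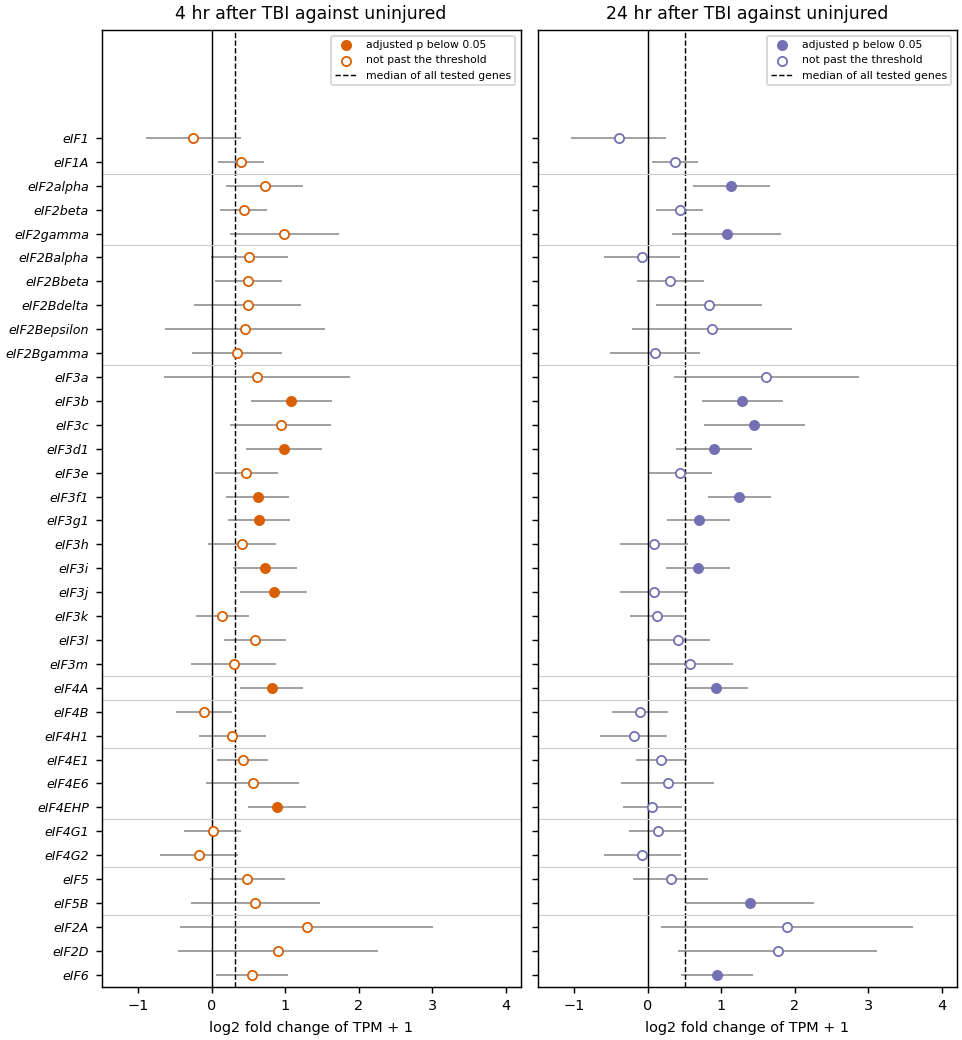
Log2 fold change of TPM + 1 for the 36 tested eIF genes, 4 hr (left) and 24 hr (right) after TBI against uninjured astrocytes, in order of complex number. Points are fitted values, filled where the adjusted p was below 0.05, bars are 95% confidence intervals, and the dashed line is the median of all tested genes (0.31 and 0.51). Filled points number 8 at 4 hr and 11 at 24 hr, most of them among the eIF3 subunits.

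In uninjured astrocytes the 36 genes spanned a wide range. The most abundant was *eIF4B*, whose product stimulates the helicase, with a mean TPM of 549.6 ± 129.8 (SD, n = 5). *eIF1*, *eIF4E1*, *eIF4A* and *eIF2beta* followed with means of 442, 336, 279 and 234, and each of these neighbours overlapped in range with the next. A gap came after them, since the lowest value of *eIF2beta*, 191, lay above the highest of *eIF3k*, 154. The same 5 genes held 53.6% to 58.2% of all eIF transcripts at 4 hr, 48.8% to 58.4% at 24 hr and 58.7% to 63.4% in uninjured astrocytes. At the low end of the tested genes, *eIF2D* had a mean of 1.96, and 35 of the 36 had a TPM of at least 1 in all 15 samples.

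**Figure D2:**
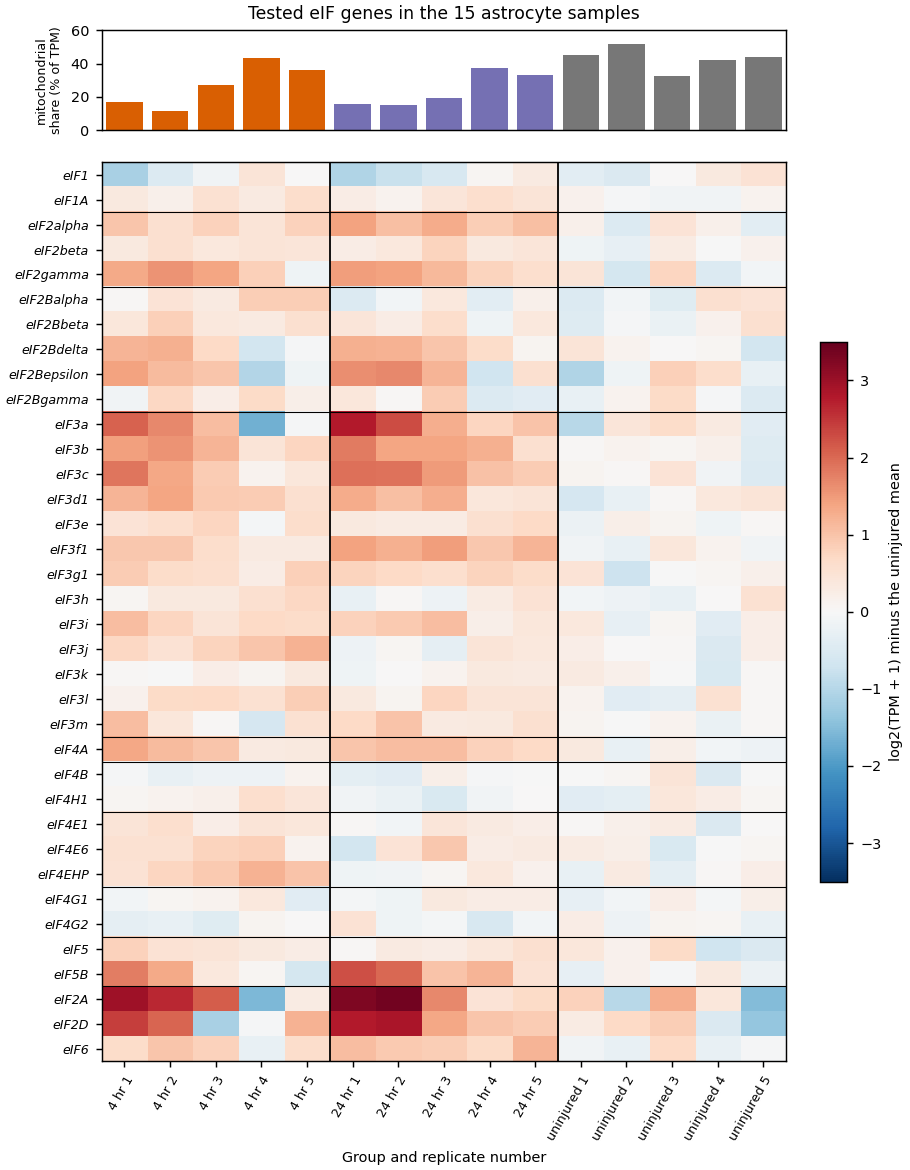
Lower panel: log2(TPM + 1) of each tested eIF gene in each sample, minus its mean over the 5 uninjured samples, from blue (lower) to red (higher), with lines between complexes. Upper panel: share of TPM from the mitochondrial genome. Replicates 1 and 2 of both injured groups, with shares of at most 17.2%, are the deepest red for *eIF2A*, *eIF2D*, *eIF3a*, *eIF3c* and *eIF5B*, while *eIF4EHP* and *eIF3j* are red in all 5 samples at 4 hr.

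Among the factors of start codon selection, neither gene was called. *eIF1* (FBgn0035423, dm6 chromosome 3L between 3223341 and 3224650) had a TPM of 193, 305, 392, 588 and 431 at 4 hr, 206, 250.3, 289, 451 and 532 at 24 hr, and 333, 299, 433, 542 and 606 in uninjured astrocytes. The groups overlapped, and its lowest values were those of replicate 1 at each injured time. *eIF1A*, its partner on the small subunit, had 140.5, 125, 161, 139 and 172 at 4 hr and 134, 120.3, 149.6, 166 and 153 at 24 hr, against 125, 109, 102, 101 and 121 in uninjured astrocytes. All 5 values at 4 hr and 4 of 5 at 24 hr were above the highest uninjured value, yet the adjusted p was 0.094 and 0.086.

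The 3 subunits of eIF2, which carries the initiator tRNA, differed widely in transcript level. *eIF2beta* had 293, 343, 302, 316 and 313 at 4 hr and 279, 298, 396, 291 and 313 at 24 hr, against 207, 191, 285, 232 and 255 in uninjured astrocytes. These were higher in nearly all injured samples, but the adjusted p stayed at 0.068 and 0.052. *eIF2alpha* (FBgn0261609, chromosome X between 16445176 and 16446993), whose product is the target of the stress kinases, was the least abundant of the 3. It had 16.0, 11.8, 14.3, 10.9 and 14.2 at 4 hr and 21.9, 17.1, 20.4, 14.9 and 17.2 at 24 hr, against 8.90, 5.25, 11.1, 8.91 and 5.75 in uninjured astrocytes. The 24 hr samples were all above the uninjured ones, and replicate 4 alone overlapped at 4 hr. At 24 hr the log2 fold change was 1.14 (SE 0.25, adjusted p = 0.0096), and at 4 hr it missed the threshold (adjusted p = 0.065). Of its exonic sequence, 12.6% lies antisense to exons of *rngo*, and reads of the pair could not be separated without strand.

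*eIF2gamma* (FBgn0263740, chromosome 3R between 15257844 and 15263458), the GTP-binding subunit, had 22.7, 27.2, 23.6, 15.8 and 7.48 at 4 hr and 25.0, 24.3, 19.8, 15.2 and 13.3 at 24 hr, against 11.8, 5.20, 14.9, 5.83 and 7.84 in uninjured astrocytes. A single injured sample at each time, replicate 5, fell within the uninjured range. The gene rose at 24 hr (log2 fold change 1.07, SE 0.35, adjusted p = 0.043), and 16.0% of its exonic sequence is shared with *Su(var)3-9* on the same strand, so part of its reads may be that gene's. The ratio of *eIF2beta* to *eIF2alpha* was 18.4 to 29.0 at 4 hr, 12.7 to 19.5 at 24 hr and 23.3 to 44.4 in uninjured astrocytes. It was below every uninjured value in the 24 hr samples, and such a ratio within a sample does not depend on how the sample was scaled. It can still move with the trend of transcript length given below. The ratio of *eIF2beta* to *eIF2gamma* overlapped between the groups, at 12.6 to 41.8 at 4 hr, 11.1 to 23.5 at 24 hr and 17.5 to 39.7 in uninjured astrocytes.

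None of the 5 subunit genes of eIF2B, the exchange factor that reloads eIF2 with GTP, was called. The most abundant, *eIF2Balpha*, had 76.4, 104, 93.5, 137 and 137 at 4 hr, 53.8, 69.8, 96.2, 57.4 and 84.3 at 24 hr, and 53.3, 69.4, 55.1, 110.1 and 104 in uninjured astrocytes, with much overlap. The least abundant, the catalytic *eIF2Bepsilon*, had 33.1, 26.7, 24.2, 5.30 and 10.6 at 4 hr and 38.8, 40.2, 28.3, 6.90 and 18.2 at 24 hr, against 5.22, 10.7, 22.2, 18.7 and 9.83 in uninjured astrocytes. Replicates 1 to 3 of both injured groups were above every uninjured sample, and replicates 4 and 5 were within their range. For *eIF2Bdelta*, replicates 1 to 3 at 4 hr and 1 to 4 at 24 hr were above every uninjured sample. *eIF2Bbeta* and *eIF2Bgamma* had mean TPMs of 46.1 and 33.4 at 4 hr, 40.5 and 29.1 at 24 hr, and 33.1 and 26.6 in uninjured astrocytes. Over the 5 genes the log2 fold changes were 0.34 to 0.51 at 4 hr and −0.08 to 0.87 at 24 hr.

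eIF3, the largest of the factors, coats the small subunit and holds the other factors in place. The table lists 16 genes for it, 13 tested subunit genes and 3 second copies. All 13 had a positive log2 fold change at both times, against 71.1% of all tested genes at 4 hr and 79.7% at 24 hr. At each time 6 of the 13 rose (46.2%), against 12.0% and 18.3% of all tested genes. The median over the 13 was 0.62 at 4 hr and 0.68 at 24 hr. Their summed TPM was 835 ± 74.3 at 4 hr, 839 ± 71.1 at 24 hr and 546 ± 44.2 in uninjured astrocytes (SD, n = 5 each), with every injured sum above every uninjured one. This separation is on the scale of TPM. The eIF3 sum was not taken with the mitochondrial genome left out, where the sums over all eIF genes overlapped between the groups.

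*eIF3b* (FBgn0034237, chromosome 2R between 17536213 and 17539142), a core subunit of the complex, was called at both times. It had 49.0, 54.4, 40.9, 24.4 and 30.1 at 4 hr and 64.3, 47.7, 47.5, 43.3 and 26.3 at 24 hr, against 18.2, 19.2, 18.6, 20.1 and 12.7 in uninjured astrocytes. All 10 injured samples were above all 5 uninjured ones. The log2 fold change was 1.08 at 4 hr (SE 0.26, adjusted p = 0.010) and 1.28 at 24 hr (SE 0.26, adjusted p = 0.0068). *eIF3c* (FBgn0034258), another core subunit, had 46.1, 31.6, 22.7, 12.9 and 15.8 at 4 hr and 47.9, 46.2, 34.6, 24.9 and 22.8 at 24 hr, against 12.6, 12.0, 16.8, 10.6 and 8.14 in uninjured astrocytes. The 24 hr samples were all above the uninjured ones, and the rise of 2.93-fold in mean TPM gave a log2 fold change of 1.45 (SE 0.33, adjusted p = 0.011). At 4 hr, replicates 4 and 5 lay within the uninjured range and the adjusted p was 0.069.

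*eIF3a*, which encodes the largest subunit, was the least abundant of the 13. It had 29.9, 22.9, 14.6, 1.31 and 6.16 at 4 hr and 49.7, 35.4, 16.8, 11.5 and 13.7 at 24 hr, against 2.80, 8.93, 10.5, 8.25 and 4.64 in uninjured astrocytes. Every 24 hr sample exceeded every uninjured sample, but the injured samples spread so widely that the gene was not called (adjusted p = 0.54 at 4 hr and 0.063 at 24 hr).

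*eIF3f1* (FBgn0037270, chromosome 3R between 4712882 and 4714182) stood out for its level at 24 hr. It had 49.0, 49.0, 38.9, 31.5 and 31.2 at 4 hr and 68.1, 61.3, 70.3, 48.8 and 58.4 at 24 hr, against 22.8, 20.8, 33.2, 27.3 and 23.1 in uninjured astrocytes. All 24 hr samples were well above the uninjured ones, and 4 of them were above every 4 hr sample. The log2 fold change was 1.24 at 24 hr (SE 0.20, adjusted p = 0.0014), the smallest adjusted p of any eIF gene. At 4 hr it was 0.62 (SE 0.20) with an adjusted p of 0.050 that was just below the threshold, and the call was lost when any of 12 of the 15 samples was left out. The difference between 24 hr and 4 hr, 0.62, missed the threshold (adjusted p = 0.091).

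*eIF3d1* (FBgn0040227, chromosome 3R between 23680039 and 23682317), which encodes a subunit able to bind the cap in mammals, had 138, 157, 114, 111 and 88.1 at 4 hr and 149, 125, 145, 78.4 and 81.8 at 24 hr, against 39.3, 50.0, 61.3, 77.0 and 81.8 in uninjured astrocytes. No sample overlapped at 4 hr, while replicates 4 and 5 overlapped at 24 hr. The log2 fold change was 0.99 at 4 hr (SE 0.25, adjusted p = 0.012) and 0.89 at 24 hr (SE 0.25, adjusted p = 0.024). *eIF3i* (FBgn0015834, chromosome 2L between 4966367 and 4967775), a partner of eIF3b and eIF3g, had 164, 132, 106, 125 and 122 at 4 hr and 137, 148, 164, 89.6 and 102 at 24 hr, against 101, 63.4, 81.2, 58.8 and 90.3 in uninjured astrocytes. It was higher in 5 and in 4 of the 5 injured samples than in any uninjured one, by a log2 fold change of 0.73 at 4 hr (SE 0.21, adjusted p = 0.026) and 0.68 at 24 hr (SE 0.21, adjusted p = 0.032). *eIF3g1* (FBgn0029629, on chromosome X between 2609247 and 2610336) had 104, 87.8, 84.6, 67.6 and 101 at 4 hr and 96.7, 91.0, 84.5, 96.4 and 88.7 at 24 hr, against 79.0, 33.8, 55.2, 58.9 and 64.1 in uninjured astrocytes. Replicate 4 at 4 hr was its only injured sample in the uninjured range, and its log2 fold changes were 0.64 (SE 0.20, adjusted p = 0.045) and 0.69 (SE 0.20, adjusted p = 0.030).

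*eIF3j* (FBgn0027619, chromosome 2R between 9968929 and 9970897), which encodes a loosely bound subunit that acts in mRNA recruitment and ribosome recycling, was high at 4 hr. It had 47.7, 40.6, 49.5, 56.6 and 67.9 at 4 hr and 25.3, 30.1, 22.6, 39.1 and 37.2 at 24 hr, against 33.7, 28.6, 29.6, 19.6 and 33.4 in uninjured astrocytes. The 4 hr samples were above all others, and the 24 hr and uninjured samples were mixed. It rose at 4 hr (log2 fold change 0.84, SE 0.22, adjusted p = 0.016), had a log2 fold change of 0.08 at 24 hr (adjusted p = 0.80), and the difference of 24 hr from 4 hr was −0.76 (SE 0.22), which just missed the threshold at an adjusted p of 0.057.

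At the other end, *eIF3k*, the most abundant subunit gene in uninjured astrocytes, had 128, 124, 145, 133 and 159.6 at 4 hr, 113, 125, 135, 159 and 154 at 24 hr, and 154, 142, 124, 86.0 and 128 in uninjured astrocytes. Its groups overlapped throughout. The remaining *eIF3e*, *eIF3h*, *eIF3l* and *eIF3m* had mean TPMs of 27.8, 33.8, 102 and 20.2 at 4 hr, 26.9, 27.0, 90.2 and 23.4 at 24 hr, and 19.5, 25.4, 68.4 and 15.2 in uninjured astrocytes, and none was called.

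eIF3 is built with a single copy of each subunit, yet its transcripts were far from equal. The highest subunit exceeded the lowest by 6.25-fold to 102-fold at 4 hr, 6.14-fold to 13.8-fold at 24 hr and 11.7-fold to 55.0-fold in uninjured astrocytes. These ranges overlapped. The highest ratio came from the TPM of 1.31 of *eIF3a* in replicate 4 at 4 hr.

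**Figure D3:**
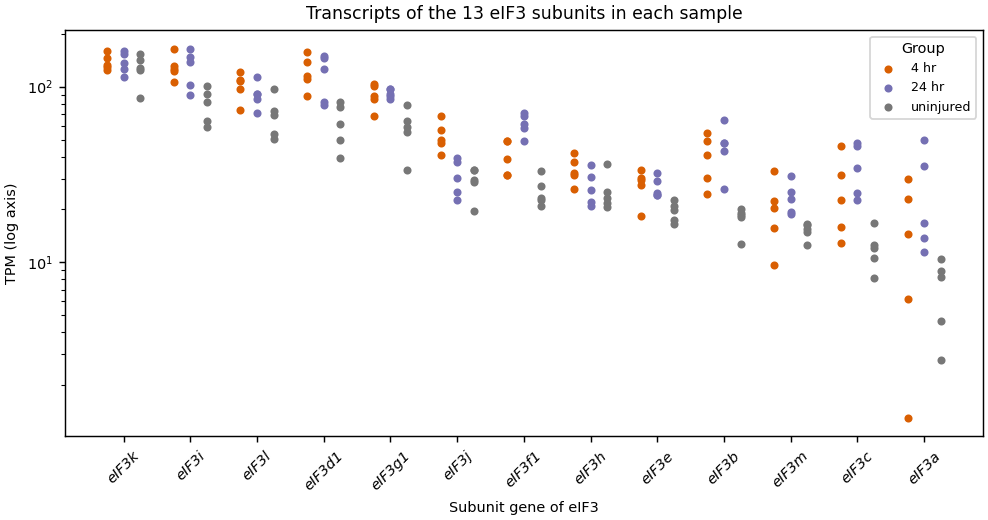
TPM of the 13 tested eIF3 subunit genes on a log axis, with 1 point for each of the 15 samples and the groups side by side (4 hr, 24 hr and uninjured, n = 5 each), in order of falling level from *eIF3k* to *eIF3a*. *eIF3k* overlaps between the groups, *eIF3b* is higher in all 10 injured samples, and *eIF3a* ranges from 1.31 to 29.9 within the 4 hr group.

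The helicase gene *eIF4A* (FBgn0001942, chromosome 2L between 5981764 and 5985909), whose product unwinds the leader of the mRNA, rose at both times. It had 698, 599, 536, 341 and 351 at 4 hr and 542, 584, 582, 485 and 447 at 24 hr, against 349, 228, 319, 255 and 244 in uninjured astrocytes. All 24 hr samples and 4 of the 4 hr samples were above every uninjured one, with replicate 4 at 4 hr just inside. The log2 fold change was 0.82 at 4 hr (SE 0.20, adjusted p = 0.012) and 0.93 at 24 hr (SE 0.20, adjusted p = 0.010). The tested genes of its cofactors were not called. *eIF4B* had 520.3, 445, 472, 475 and 590.2 at 4 hr, 425, 408, 623, 522 and 535 at 24 hr, and 537, 559, 741, 375 and 536 in uninjured astrocytes, and it overlapped at both times (adjusted p = 0.74 and 0.66). *eIF4H1* had 23.5, 24.8, 25.5, 34.4 and 30.4 at 4 hr, 20.7, 19.1, 15.3, 20.4 and 22.9 at 24 hr, and 16.9, 17.7, 29.9, 27.1 and 23.6 in uninjured astrocytes. Its 24 hr samples were all below its 4 hr samples, without a call (adjusted p = 0.25).

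Among the 3 tested genes of the cap-binding family, *eIF4EHP* was the only one called. *eIF4E1*, the main cap-binding factor, had 448, 496, 388, 450.3 and 436 at 4 hr, 339, 312, 439.8, 410.1 and 388 at 24 hr, and 339.5, 370.2, 406, 231 and 332 in uninjured astrocytes, and it was not called (adjusted p = 0.10 at 4 hr and 0.42 at 24 hr). *eIF4EHP* (FBgn0053100, chromosome 3R between 24063077 and 24108960) encodes a relative that binds the cap but not eIF4G, and it represses the mRNAs to which it is recruited. It had 80.3, 95.6, 108, 133 and 114 at 4 hr and 50.8, 51.3, 59.3, 72.4 and 62.5 at 24 hr, against 47.2, 70.6, 44.5, 57.8 and 66.1 in uninjured astrocytes. Every 4 hr sample was above every other sample, and the 24 hr and uninjured samples were mixed.

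In mean TPM, *eIF4EHP* was 1.86-fold higher at 4 hr than in uninjured astrocytes (log2 fold change 0.88, SE 0.19, adjusted p = 0.0041), and it was 1.04-fold at 24 hr (adjusted p = 0.83). At 24 hr it was lower than at 4 hr by a log2 fold change of −0.82 (SE 0.19, adjusted p = 0.015), and this was the only call among the eIF genes between the times. The values at 4 hr were highest in replicates 4 and 5, whose mitochondrial shares were those of uninjured astrocytes. With the share as a covariate the log2 fold change at 4 hr was 1.21 (adjusted p = 0.00011), but with size factors it was 0.55 (adjusted p = 0.19). Exons of *Syx1A* cover 7.0% of its exonic sequence on the same strand.

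Within a sample, the ratio of *eIF4EHP* to *eIF4E1* was 0.179 to 0.295 at 4 hr, 0.135 to 0.177 at 24 hr and 0.109 to 0.250 in uninjured astrocytes. All 4 hr ratios were above all 24 hr ratios, and the uninjured ones overlapped with both. *eIF4EHP* made up 18.9% ± 3.34 of the transcripts of the family at 4 hr, 13.2% ± 1.16 at 24 hr and 14.6% ± 3.72 in uninjured astrocytes (SD, n = 5 each). *eIF4E6*, a short paralog and the least abundant tested member, had 11.8, 11.7, 14.1, 14.6 and 8.51 at 4 hr, 4.60, 11.3, 16.0, 9.57 and 9.84 at 24 hr, and 9.63, 9.09, 5.02, 7.77 and 8.25 in uninjured astrocytes. It overlapped between the groups and was not called.

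**Figure D4:**
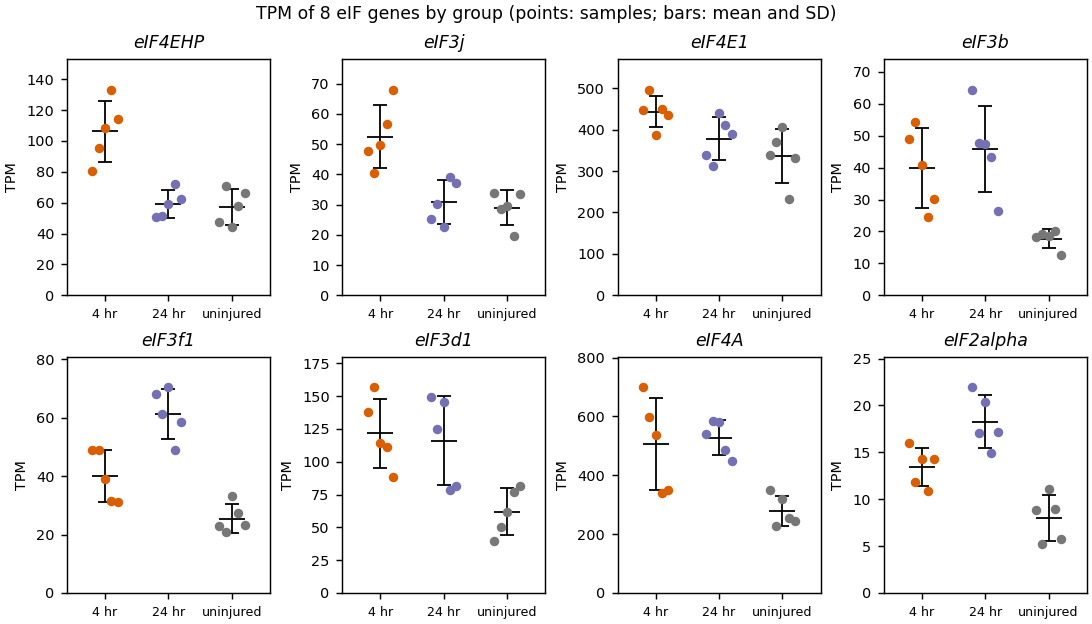
TPM of 8 eIF genes in the 3 groups, with 1 point for each sample and bars for the mean and SD (n = 5 each), on axes that start at 0. *eIF4EHP* and *eIF3j* are high at 4 hr and overlap between 24 hr and uninjured astrocytes, *eIF3f1* and *eIF2alpha* have their highest means at 24 hr (61.4 and 18.3), and *eIF3b*, *eIF3d1* and *eIF4A* are high at both times.

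The scaffold genes were not called. *eIF4G1*, which encodes the scaffold between eIF4E and eIF4A, had 71.3, 80.5, 84.1, 99.0 and 57.9 at 4 hr, 73.1, 69.0, 98.5, 93.1 and 92.2 at 24 hr, and 63.0, 72.4, 90.1, 73.1 and 89.0 in uninjured astrocytes. Its log2 fold changes were 0.01 (95% confidence interval −0.37 to 0.39) and 0.13 (−0.25 to 0.52). *eIF4G2*, a paralog known for its role in the male germline, had 8.69, 8.96, 8.00, 11.8 and 11.1 at 4 hr, 15.9, 9.79, 10.5, 7.13 and 10.1 at 24 hr, and 13.4, 9.55, 11.8, 11.7 and 9.03 in uninjured astrocytes. Both overlapped between the groups.

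Of the factors of subunit joining, *eIF5B* (FBgn0026259, chromosome 3L between 3428658 and 3460977), the GTPase that joins the subunits, rose at 24 hr. It had 33.6, 23.9, 11.8, 9.48 and 5.54 at 4 hr and 46.4, 38.9, 18.9, 21.7 and 13.2 at 24 hr, against 7.20, 10.2, 8.69, 11.7 and 7.72 in uninjured astrocytes. The 24 hr samples were all above the uninjured ones, with a log2 fold change of 1.39 (SE 0.42, adjusted p = 0.032), while the 4 hr samples ran from below to far above them (adjusted p = 0.39). *eIF5*, whose product makes eIF2 hydrolyse its GTP, had 69.5, 56.5, 53.9, 50.2 and 46.8 at 4 hr, 40.0, 48.7, 46.7, 52.0 and 57.8 at 24 hr, and 51.7, 43.7, 62.5, 23.7 and 27.1 in uninjured astrocytes. It was not called, and 80.8% of its exonic sequence is also annotated to *CG46312* on the same strand, so its level is uncertain.

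*eIF6* (FBgn0034915, chromosome 2R between 23849246 and 23850301), which encodes a factor that keeps the large subunit free, had 134, 166, 149, 70.4 and 129 at 4 hr and 180.2, 161, 156, 135 and 195 at 24 hr, against 78.5, 70.0, 137, 70.8 and 81.9 in uninjured astrocytes. Apart from uninjured replicate 3, the 24 hr samples were all far above the uninjured ones. The gene rose at 24 hr (log2 fold change 0.95, SE 0.23, adjusted p = 0.016) and was not called at 4 hr (adjusted p = 0.13).

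*eIF2A* and *eIF2D*, which encode factors of alternative initiation outside the eIF2 complex, had the largest log2 fold changes of the eIF genes at 24 hr and a wide spread. *eIF2A* had 88.9, 71.1, 49.2, 2.84 and 12.99 at 4 hr and 109.8, 118, 36.1, 15.03 and 17.2 at 24 hr, against 19.2, 4.88, 26.9, 14.2 and 2.99 in uninjured astrocytes. Replicates 1 to 3 were above every uninjured sample at both times and replicates 4 and 5 were not, and the 24 hr log2 fold change of 1.89 had a 95% confidence interval from 0.18 to 3.61 (adjusted p = 0.099). *eIF2D*, the least abundant tested gene, had 12.7, 9.54, 0.17, 1.50 and 4.92 at 4 hr and 16.4, 17.6, 5.56, 4.03 and 3.71 at 24 hr, against 2.12, 3.19, 3.66, 0.82 and 0 in uninjured astrocytes. All 24 hr samples were higher than any uninjured one, by as little as 3.71 against 3.66, and the adjusted p was 0.061.

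The 8 eIF genes that did not pass the filter were second copies or minor members of a family. *eIF3g2*, *eIF4E4* and *eIF4E5* were listed at 0 in all 15 samples. *eIF3d2*, *eIF4E3* and *eIF4H2* were at 0 in all uninjured samples, and reached at most 0.07, 1.44 and 0.22. Fewer genes of any kind were above 0 in the uninjured samples, as given above. *eIF3f2* and *eIF4E7* were highest in an uninjured sample, at 3.50 and 4.47, with 0 in several others. The copies *eIF3d1*, *eIF3f1*, *eIF3g1* and *eIF4H1* were above them in every sample. No fold change is given for these genes, because a TPM of 0 has no known depth behind it.

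Replicates 4 and 5 of both injured groups were then left out, a choice made after the data were seen. With 3 samples at each time, 17 eIF genes were called at 4 hr, all higher, and at 24 hr 16 were higher and *eIF1* was lower. Calls over all tested genes increased too, to 26.1% higher at 4 hr, and to 36.1% higher and 3.07% lower at 24 hr. Among the 8 and 11 genes named above, all were called again. The call of *eIF4EHP* between the times was lost (log2 fold change −0.80, adjusted p = 0.099). The mitochondrial share moved with these values, and its part in them was not tested.

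Transcript length moved with the same samples. On average over all tested genes, log2 TPM rose with each doubling of length by 0.10 to 0.27 in replicates 1 to 3 at 4 hr and by 0.13 to 0.38 at 24 hr, and by −0.12 to 0.02 in all other samples, uninjured ones included. For the 11 eIF genes with a longest transcript of 2 to 4 kb, the median fold change was 0.82 at 4 hr and 0.93 at 24 hr on the log2 scale, against 0.47 and 0.80 for all tested genes of that length. For the 8 eIF genes under 1.2 kb the medians were 0.53 and 0.35, against 0.08 and 0.11 for all. For the 13 in between they were 0.47 and 0.37, against 0.27 and 0.42, and for the 4 longest 0.30 and 0.10, against 0.36 and 0.60. The eIF genes thus lay above genes of their own length in 3 of the 4 classes at 4 hr and in 2 at 24 hr. Among the 4 longest, *eIF4G1* (6.34 kb) and *eIF4G2* (8.89 kb) had log2 fold changes between −0.18 and 0.13, while *eIF5B* (4.40 kb) was high at 24 hr and *eIF4EHP* (4.54 kb) at 4 hr. Transcripts of *eIF4EHP* are annotated from 1.32 to 4.54 kb, so its place in this class rests on the longest, whose use is unknown.

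**Figure D5:**
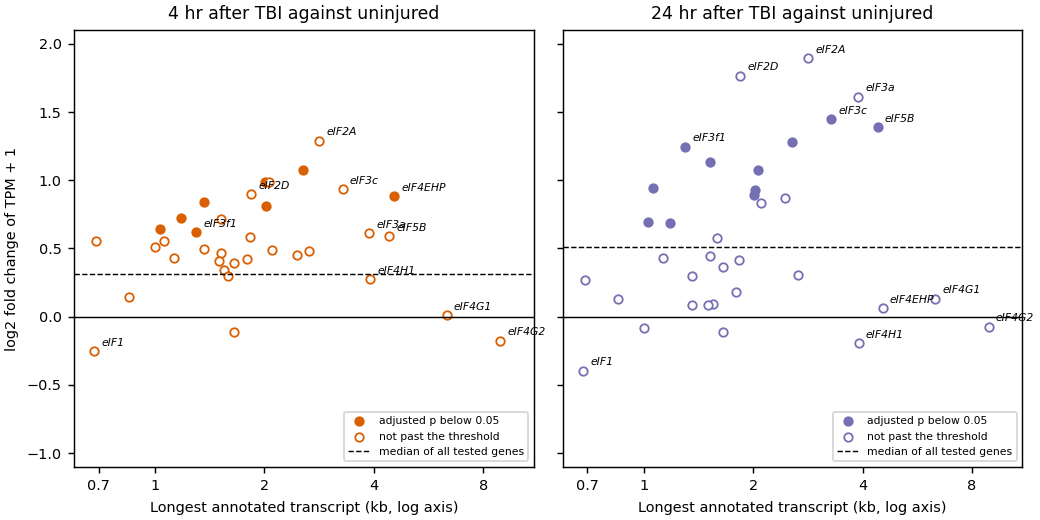
Log2 fold change of TPM + 1 against the length of the longest annotated transcript (kb, log axis) for the 36 tested eIF genes, 4 hr (left) and 24 hr (right) after TBI against uninjured astrocytes. Filled points were called, and the dashed line is the median of all tested genes. Across these genes, which are not independent replicates, Spearman's rho was 0.15 at 4 hr and 0.23 at 24 hr. Over the 32 genes under 4 kb it was 0.29 and 0.43.

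With the trend of length removed from each sample, another choice made after the data were seen, no eIF gene was called at 4 hr, and *eIF3f1* and *eIF6* were called at 24 hr. Of all genes tested with a length, 7.00% and 2.81% were then higher at the 2 times. *eIF3f1* at 24 hr was called under each of 13 alternatives of processing and with any of the 15 samples left out. With size factors, *eIF3b* and *eIF3d1* were called at 4 hr, and *eIF3b*, *eIF3c* and *eIF3f1* at 24 hr. Under that scaling, 609 of all tested genes rose (7.52%) and 350 fell at 4 hr, and 270 rose (3.33%) and 237 fell at 24 hr. When the fit took the mitochondrial share as a term, *eIF3b* lost its calls at both times, and *eIF3f1* was the only eIF gene called at 24 hr, when 0.864% of all tested genes were higher.

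Some calls also rested on single samples. *eIF3b*, *eIF3d1*, *eIF3j*, *eIF4A* and *eIF4EHP* at 4 hr and *eIF2alpha*, *eIF3b*, *eIF3c*, *eIF3f1*, *eIF4A* and *eIF6* at 24 hr were called with any of the 15 samples left out, as was *eIF4EHP* between the times. *eIF3g1* at 4 hr kept its call in 2 of the 15 fits and *eIF3i* in 11, with losses for *eIF3i* without uninjured replicate 2 or 4 or 4 hr replicate 1 or 2. At 24 hr, *eIF2gamma* kept its call in 8 fits, *eIF5B* in 9, *eIF3d1* and *eIF3i* in 10 and *eIF3g1* in 11. Each of these 24 hr calls was lost without uninjured replicate 2 or any of replicates 1, 2 and 3 at 24 hr.

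The summed TPM of the astrocyte markers was 50859 to 84423 over the samples. The marker sums of other cells were far below it, and some of them differed between the groups. Single markers could overlap, since *zyd* of cortex glia had 78.7 to 134 in uninjured samples and *htl* of the astrocyte list 50.3 to 126. The 2 cortex glia markers (*zyd* and *wrapper*) summed to 136.6 to 240.0 at 24 hr, against 78.7 to 135 in uninjured astrocytes (exact permutation p = 0.00794, the smallest that 5 against 5 samples allow), and *zyd* gave nearly all of it. The 3 surface glia markers summed to 13.9 to 79.8 at 4 hr, 21.8 to 64.6 at 24 hr and 7.82 to 29.9 in uninjured astrocytes (exact permutation p = 0.0397 at 4 hr and 0.0238 at 24 hr). Nearly all of this was *moody*, since *Mdr65* and *Gli* reached at most 0.76 and 0.29. The 5 hemocyte markers summed to 0.13 to 1.27 at 4 hr, 0 to 2.60 at 24 hr and 0 to 0.19 in uninjured astrocytes (exact permutation p = 0.0159 and 0.0476), with *He* at 0 in every sample. The 5 fat body markers summed to 0.27 to 4.40 at 4 hr, 0.33 to 3.71 at 24 hr and 0 to 0.62 in uninjured astrocytes (exact permutation p = 0.0556 and 0.0397). The 4 photoreceptor markers, nearly all of it *norpA*, were lower at 24 hr, with sums of 26.6 to 52.3, against 45.5 to 71.9 in uninjured astrocytes (exact permutation p = 0.0317), and had an exact permutation p of 0.119 at 4 hr. For neuron markers the exact permutation p was 0.0794 and 0.317, and for muscle markers 0.556 and 0.246. The hemocyte and fat body sums were near 0, and fewer genes of any kind were above 0 in the uninjured samples. The part of these other cell types in the eIF values was not tested.

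Genes that act on the initiation factors were compared in the same fit, and many of their calls were lost under another scaling or with 1 sample left out. Their counts are to be read against the 12.0% of all tested genes that rose at 4 hr and the 18.3% that rose at 24 hr, and their medians against 0.31 and 0.51. Of the 7 genes of the eIF2alpha kinases, their phosphatase and the stress response, 1 rose at 4 hr (14.3%) and 4 at 24 hr (57.1%). The median log2 fold change over the 7 was 0.28 and 0.83. *Gcn2*, an eIF2alpha kinase, had 18.2, 14.6, 12.7, 7.75 and 7.52 at 4 hr and 21.4, 21.6, 23.3, 19.3 and 24.5 at 24 hr, against 13.3, 8.28, 10.7, 12.3 and 13.8 in uninjured astrocytes. It rose at 24 hr (log2 fold change 0.88, SE 0.26, adjusted p = 0.031). *crc*, the fly ATF4 that is translated when eIF2alpha is phosphorylated, rose at 24 hr as well (0.72, SE 0.16, adjusted p = 0.0094), as did the ER chaperone gene *Hsc70-3* (1.88, SE 0.49, adjusted p = 0.020). *Xrp1*, which encodes a stress-induced transcription factor, rose at 4 hr (1.09, SE 0.31, adjusted p = 0.025) and at 24 hr (1.33, SE 0.31, adjusted p = 0.013). The other eIF2alpha kinase gene, *PEK*, had log2 fold changes of 0.46 and 0.83 without a call.

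Of the 13 regulators of cap binding, 10 were tested, and 2 rose at each time (20%). The median log2 fold change over the 10 was 0.76 at 4 hr and 0.52 at 24 hr, and at 24 hr both the share and the median were near those of all genes. *Paip2*, whose product inhibits the poly(A)-binding protein, had 123, 137, 168, 161 and 177 at 4 hr and 72.0, 58.7, 111, 108 and 111 at 24 hr, against 80.1, 87.4, 86.2, 109 and 88.2 in uninjured astrocytes. Like *eIF4EHP*, it was above all other samples at 4 hr (log2 fold change 0.75, SE 0.20, adjusted p = 0.016) and was lower at 24 hr than at 4 hr (−0.76, SE 0.20, adjusted p = 0.032). *NAT1*, which encodes an eIF4G relative that does not bind eIF4E, rose at 4 hr (0.99, SE 0.25, adjusted p = 0.014). *mxt* (0.96, SE 0.31, adjusted p = 0.043) and the eIF4E kinase gene *Lk6* (1.11, SE 0.36, adjusted p = 0.043) rose at 24 hr. *Thor*, the fly 4E-BP that blocks eIF4E, did not pass the filter and was at most 0.71 at 4 hr, 0.94 at 24 hr and 1.44 in uninjured astrocytes.

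Of the 9 genes listed for TOR, 1 rose at 4 hr (11.1%) and 2 at 24 hr (22.2%), near the shares of all genes. The median log2 fold change over the 9 was 0.59 at 4 hr and 0.88 at 24 hr, above those of all genes. *S6k*, which encodes the kinase of ribosomal protein S6, rose at 4 hr (1.11, SE 0.30, adjusted p = 0.022). The TOR inhibitor gene *Tsc1* rose at 24 hr (1.46, SE 0.43, adjusted p = 0.030). So did *S6kII* (1.19, SE 0.36, adjusted p = 0.033), a listed kinase gene that is distinct from *S6k*. Of the elongation factors, 8 were tested. Among them 4 rose at 4 hr (50%) and 6 at 24 hr (75%), with median log2 fold changes of 0.85 and 0.89 over the 8. *eEF1alpha1*, which delivers tRNA to the ribosome, had log2 fold changes of 0.82 (SE 0.19, adjusted p = 0.0073) and 1.44 (SE 0.19, adjusted p = 0.00036). Its partners *eEF1beta* (0.86 and 0.54), *eEF1delta* (1.01 and 0.67) and *eEF1gamma* (1.32 and 1.71) rose at both times, and *eEF2* (1.56) and *eEFSec* (1.12) at 24 hr. *eEFSec* reached a TPM of 1 in injured samples alone and was at most 0.88 in uninjured ones. Since it passed the filter only through injured samples, its call and its part in the 75% are no support for a rise. *eEF5*, once named eIF5A, was in the list and was not called.

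Of the 7 genes of termination, rescue and recycling, 2 rose at 4 hr (28.6%) and 5 at 24 hr (71.4%). The median log2 fold change over the 7 was 0.57 and 0.99. Those that rose were *eRF1* (0.57) at 4 hr and *pelo*, whose product frees stalled ribosomes (2.05 and 2.20), at both times. *eRF3* (1.27), *pix* (0.97), *MCTS1* (0.99) and *HBS1* (1.34) rose at 24 hr. Of the 7 mitochondrial translation factors, 1 rose at 4 hr (14.3%) and 3 at 24 hr (42.9%), with medians of 0.58 and 1.24 over the 7. *mEFTs* rose at both times (0.90 and 0.88), and *mEFG1* (1.24) and *mRF1* (1.32) at 24 hr. *mRF1* was at most 0.98 TPM in uninjured samples and passed the filter through injured samples alone. *mEFG1* had an uninjured median TPM of 0.22 and was at most 1.31 there. With uninjured levels so near the filter, these calls and their part in the 42.9% are weak support for a rise. Of the 4 genes with an older eIF name (*eEF5*, *kra*, *CG7483* and *AGO2*), none was called in any comparison.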

How the data were processed

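The authors amplified cDNA of sorted astrocytes by Smart-seq2, aligned the reads to dm6 with HISAT2, counted them with HTSeq and deposited 1 table of TPM values for 15 samples. The submitters' processing notes name Trimmomatic 0.39, FastQC 0.11.7, HISAT2, STAR 2.6.0a, HTSeq, RSEM 1.3.1, DESeq2 1.30.1 and R 4.0.0, and how TPM was derived from them, and whether strand was used, is not given in the sources used here. The depth of each sample is unknown, so precision came from the replicates.

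Symbols, positions and transcripts are those of Ensembl release 115 on BDGP6 (dm6), which held 17398 of the 17509 identifiers. Genes that reached a TPM of 1 in 5 or more samples were fitted as log2(TPM + 1), all 3 groups together, with limma 3.58.1 (moderated variances with a trend) in R 4.3.3, and p-values were adjusted over all 8101 tested genes. On this scale the change of genes near 0 is understated. For marker sums and mitochondrial shares an exact permutation test (two-sided) was used. Replicates are separate sorted samples. Python 3.11.15, pandas 2.3.3, NumPy 2.4.6, SciPy 1.17.1 and matplotlib 3.10.9 were used, and the fit was tested on simulated data.

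The eIF genes, the lists and the tests were chosen with earlier results of these data known. Values in every sample and the test are given for each eIF gene called in any comparison, values for the most and least abundant member of each complex, and the others by range and count. The members of related lists that were called are named with their log2 fold changes. The SE, the adjusted p and the values in every sample are given for some of them only. Further members are named where a pattern or a list called for it. The alternatives tried were no filter, a TPM minimum of 5, a pseudocount of 0.1, fits of the 2 groups compared, no variance trend, size factors, quantile normalization, the mitochondrial genome left out, its share as a covariate, a replicate block, sample weights, the thresholds of the study and each sample left out. The 2 added after the data were seen left out replicates 4 and 5 of both injured groups, and removed the trend with transcript length.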

Additional observations from a re-analysis of the deposited data

Results flagged for a closer look

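In 111 sets of 5 samples (36 tested eIF genes and their summed TPM in 3 groups), 3 held a sample whose gap to the next was larger than Dixon's 95% limit. Chance gives about 1 in 20. *eIF2beta* had a TPM of 396 in replicate 3 at 24 hr, where the next was 313. *eIF6* had 137 in uninjured replicate 3, where the next was 81.9. *eIF3b* had 12.7 in uninjured replicate 5, where the next was 18.2. *eIF4EHP* was the only eIF gene whose levels at 24 hr and 4 hr differed past the threshold, by a log2 fold change of −0.82 (limma adjusted p = 0.015), with all 5 samples at 24 hr below all 5 at 4 hr. The call was lost with the mitochondrial genome left out (adjusted p = 0.061) and without replicates 4 and 5 of both injured groups (adjusted p = 0.099).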

How the results depend on the processing

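The number of calls moved with the scaling, the weights, the thresholds and the samples used. At 4 hr, against 8 eIF genes, 2 were called with size factors, 2 with quantile normalization, 2 with the mitochondrial genome left out, 3 with its share as a covariate, 0 with the trend of length removed, 0 under the thresholds of the study, 13 with sample weights and 17 without replicates 4 and 5 of both injured groups. At 24 hr, against 11, the counts were 3, 4, 3, 1, 2 and 3 in the same order, and 17 without those replicates. Between 24 hr and 4 hr, against 1 (*eIF4EHP*), the count was again 1 with the mitochondrial genome left out but was *eIF3f1*, higher at 24 hr. Counts there were 2 with a TPM minimum of 5, 3 with the covariate, 3 with sample weights, 3 with the trend of length removed, 0 under the thresholds of the study and 0 without those replicates. The median log2 fold change of the eIF genes at 4 hr was 0.53, and 0.19 with size factors, 0.18 with quantile normalization, 0.19 with the mitochondrial genome left out, 0.34 with the covariate, 0.18 with the trend of length removed and 0.64 without those replicates. At 24 hr it was 0.44, and −0.055, 0.035, 0.036 and 0.096 with size factors, quantile normalization, the mitochondrial genome left out and the trend of length removed. Between the times it was −0.0018, and −0.16 with size factors. Leaving out each sample in turn gave 5 to 12 calls at 4 hr (5 without uninjured replicate 2 or 4 hr replicate 2), 6 to 14 at 24 hr (6 without uninjured replicate 2 or 24 hr replicate 1, 2 or 3) and 1 to 2 between the times (2 without uninjured replicate 4, 4 hr replicate 2 or 24 hr replicate 4), with medians of 0.45 to 0.65, 0.42 to 0.49 and −0.02 to 0.03. With a replicate block, 11, 16 and 2 genes were called. Of 15 same-numbered pairs, 8 correlated above 0.1 and 4 correlated best with their own number. Between 4 hr and 24 hr, r was 0.54, 0.40, −0.018, 0.36 and 0.41 for replicates 1 to 5. Pairs with an uninjured sample had r from −0.038 to 0.21. The numbers are those of the sample titles, and the deposited columns of the uninjured and 24 hr groups are mostly numbered otherwise. No label names a batch or a pairing, so a shared number need not mean shared handling. The main fit did not take the numbers as pairs, so whatever same-numbered injured samples share was not modelled there. Over all alternatives for the called genes and related genes, 1099 of 1509 values kept their call and direction, 409 lost the call, and 1 reversed (*crc* at 24 hr, −0.058 with the trend of length removed). Causes were not tested. Unknown depth limits every value near 0.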
